A study of Mus musculus with 5 samples.

Results

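Wide binding domains of NEUROD2 are stretches of at least 2500 bp in which ChIP-Seq peaks of several NEUROD2 antibodies run together in the embryonic mouse cortex. Peaks of 3 antibodies that shared at least 1 bp were merged, and regions on chromosomes 1 to 19, X and Y that held peaks of at least 2 antibodies were kept. Of these 32261 regions, 688 (2.13%) reached the width limit and are the domains described here. They held 2.20 Mb of the 33.0 Mb in all regions, which is 6.67% of the bases. The domains were selected on the width of the called peaks, so their widths, peak numbers and peak scores are given as a description without a test. Sequence content and gene annotation were not used in the selection.

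Chromatin came from the cerebral cortex of BALB/c mice at embryonic day 14.5 (E14.5), with embryos of several litters pooled for each experiment. It was precipitated with 3 antibodies against NEUROD2, and each gave 1 library. The host was mouse for ab1 and rabbit for the other two. The 2 GFP control libraries, 1 for each host species, came from the same tissue and entered only as the background of peak calling, and ab2 and ab3 shared their control. There were 51841 ab1 peaks, 35310 ab2 peaks and only 7470 ab3 peaks. A spread given as SD is over these 3 antibodies (n = 3) in a single condition, not over animals. No mouse without NEUROD2 was among the samples, and the peak lists hold no read depth.

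NEUROD2 is a neuronal transcription factor of the basic helix-loop-helix (bHLH) family. Such factors pair with E proteins and contact the E-box, a short palindrome-like motif written CANNTG. In the developing cortex NEUROD2 is made by young excitatory neurons as they leave the germinal zones, migrate and become projection neurons, and it acts there beside its relatives NEUROD1 and NEUROD6. Id proteins counter the family by taking up its E protein partners.

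Sequences from domains with and without a gene start are given first, as picked examples that do not measure a difference between them. The extended E-box searched here was CAGCTG or CAGATG or CATCTG or CATATG followed by G or T, on either strand, with each site counted once. Among all windows of 200 bp laid end to end in the domains, 26.7% held at least 1 extended E-box and 0.695% held 3 or more, against 23.4% and 0.347% in the flanks of the domains and 36.8% and 1.69% in the other regions. At least 1 extended E-box was held by 33.4% of the windows in domains without a transcription start site (TSS). In domains with a TSS the share was 20.1%. The first set of sequences comes from domains without a TSS and was chosen to show where such sites lie close together. It holds the domain with the most extended E-boxes per kb near Cdh4 (chr2:179391913-179392112, intergenic), the domain with the highest summed score near Flrt1 (chr19:7148992-7149191, intron of Macrod1), the widest domain at Neurod2 itself (chr11:98317311-98317510, intergenic), a domain of the largest group of domains, at Gse1 (chr8:120558331-120558530, intron of Gse1 and of the overlapping gene model Gm20388) and the domain near Dab1 (chr4:103576441-103576640, intergenic). All 200 bases of each window lay under peaks of ab1, ab2 and ab3. The letters are the plus strand of the mm10 (GRCm38) reference, and capitals mark the core of each extended E-box.
Cdh4: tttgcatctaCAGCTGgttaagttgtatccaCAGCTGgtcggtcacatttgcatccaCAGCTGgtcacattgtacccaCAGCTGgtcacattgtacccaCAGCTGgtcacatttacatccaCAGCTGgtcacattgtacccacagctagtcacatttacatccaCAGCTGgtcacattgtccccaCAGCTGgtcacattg
Flrt1: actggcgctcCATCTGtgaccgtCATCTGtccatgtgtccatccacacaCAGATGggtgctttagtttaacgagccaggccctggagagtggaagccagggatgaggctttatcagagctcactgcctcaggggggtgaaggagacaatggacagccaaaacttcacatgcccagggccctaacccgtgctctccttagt
Neurod2: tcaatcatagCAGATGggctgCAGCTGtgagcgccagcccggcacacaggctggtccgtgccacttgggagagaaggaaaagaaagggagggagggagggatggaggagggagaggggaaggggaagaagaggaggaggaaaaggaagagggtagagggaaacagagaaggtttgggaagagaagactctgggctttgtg
Gse1: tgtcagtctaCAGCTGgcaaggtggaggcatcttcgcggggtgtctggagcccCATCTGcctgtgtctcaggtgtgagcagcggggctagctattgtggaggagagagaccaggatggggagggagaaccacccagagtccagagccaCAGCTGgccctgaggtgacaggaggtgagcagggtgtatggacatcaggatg
Dab1: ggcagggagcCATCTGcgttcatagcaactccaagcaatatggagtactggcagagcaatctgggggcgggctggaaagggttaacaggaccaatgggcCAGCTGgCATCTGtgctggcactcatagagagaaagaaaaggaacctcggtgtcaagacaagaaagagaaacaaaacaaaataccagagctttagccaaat

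The window near Cdh4 held 8 extended E-boxes, all CAGCTG, and of the 7 distances between their starts 4 were 21 bp, 1 was 22 bp, 1 was 26 bp and 1 was 43 bp. A repeated unit with the E-box inside it is therefore visible in the letters, and 53% of the window was masked as repeat in the reference. The windows of Flrt1, Gse1 and Dab1 held 3 sites each, and that of Neurod2 held 2. The second set comes from domains that contain a TSS, upstream of Id4 (chr13:48260931-48261130) and of Nfia (chr4:97777344-97777543). It was chosen to show sites of another motif close together. Their centres lay upstream of the coding TSS, at −197 bp and −164 bp. Capitals here mark the GC box, CCGCCC on either strand, to which Sp family factors are known to bind.
Id4: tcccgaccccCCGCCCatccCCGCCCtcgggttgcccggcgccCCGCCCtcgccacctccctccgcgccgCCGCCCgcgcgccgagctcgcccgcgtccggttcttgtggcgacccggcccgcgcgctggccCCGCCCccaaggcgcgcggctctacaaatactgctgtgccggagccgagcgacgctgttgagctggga
Nfia: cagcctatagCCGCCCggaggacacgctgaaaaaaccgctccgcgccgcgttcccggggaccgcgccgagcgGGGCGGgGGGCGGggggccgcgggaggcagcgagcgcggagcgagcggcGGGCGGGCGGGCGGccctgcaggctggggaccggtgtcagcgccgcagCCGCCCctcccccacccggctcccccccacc

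The Id4 window held 5 GC boxes at a GC content of 78.5%, and the Nfia window held 7 at 81.5%. Both windows lay wholly under peaks of ab1 and ab2 and under no peak of ab3. Neither held an extended E-box, but only 20.1% of all windows in domains with a TSS held at least 1.

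Widths ran from 2500 to 7758 bp, with a median of 2984 bp and quartiles of 2701.5 and 3487 bp. At least 3000 bp was reached by 333 domains, so most members lay close to the limit. The median of the other 31573 regions was 857 bp. Just inside the limit were domains near Cdh4 (2500 bp), Actg1 (2502 bp) and Dll1 (2502 bp). Just outside were regions near Cypt12 (2498 bp), Gins2 (2496 bp) and Creb5 (2496 bp), with ab1 scores of 752, 1031 and 890.

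**Figure D1:**
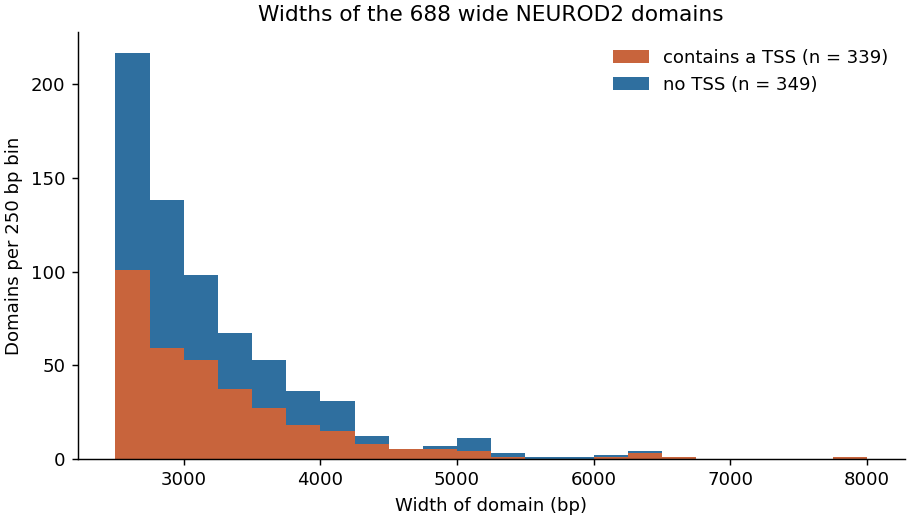
Histogram of the widths of the 688 wide domains in bins of 250 bp, stacked by whether the domain contains a TSS (orange, 339 domains) or not (blue, 349 domains). The first bin above the limit of 2500 bp holds the most domains, both kinds occur over most of the range, and the widest domain reaches 7758 bp.

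Most wide domains held a broad peak of at least 1 antibody that reached the limit by itself. In 588 of the 688 domains (85.5%, 95% Wilson interval 82.6 to 87.9, counting error only, as for all intervals here) a single peak alone reached 2500 bp, and the others came from joined narrower peaks. Every domain held peaks of ab1 and of ab2, and so did 31522 of the 31573 other regions. A lone ab1 peak lay in 516 domains, 2 in 157 and 3 or more in 15, and for ab2 the counts were 558, 125 and 5. Peaks of ab1 covered 92.4% of the bases in the domains and those of ab2 covered 92.1%. A peak of at least 2500 bp was called in 425 domains with ab1 and in 459 with ab2. At least 2500 bp lay under 2 or more antibodies in 399 domains (58.0%).

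Antibody ab3 marked smaller parts of the domains. It had a peak in 316 of them (45.9%, 42.2 to 49.7), while 22.2% of all 32261 regions and 21.7% of the other regions held peaks of all 3 antibodies. Its peaks covered 21.3% of the bases, and their median width, taking the widest in each domain, was 1111 bp against 2643 bp for ab1 and 2698 bp for ab2. Only 9 domains held an ab3 peak of 2500 bp or more.

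Scores were high in the typical domain and spread widely. The score is 10 times the −log10 of the p-value from MACS, the peak caller. With ab1 the lowest, median and highest of the domains' top scores were 83.8, 1197 and 3199, with ab2 they were 50.8, 517 and 3225, and with ab3, where called, 50.1, 154.9 and 1603. The medians of the other regions were 271, 138 and 89. Scores of 3100 or above, where the scale is nearly saturated, were reached by 155 domains with ab1 and 28 with ab2. The order of domains was much alike between antibodies, with a Spearman rho of 0.913 for ab1 and ab2 over 688 domains, 0.736 for ab1 and ab3 and 0.840 for ab2 and ab3 over the 316 domains with ab3. Width followed the summed score only loosely (rho 0.166 over 688 domains). These coefficients are across domains of the same tissue and describe only these libraries.

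**Figure D2:**
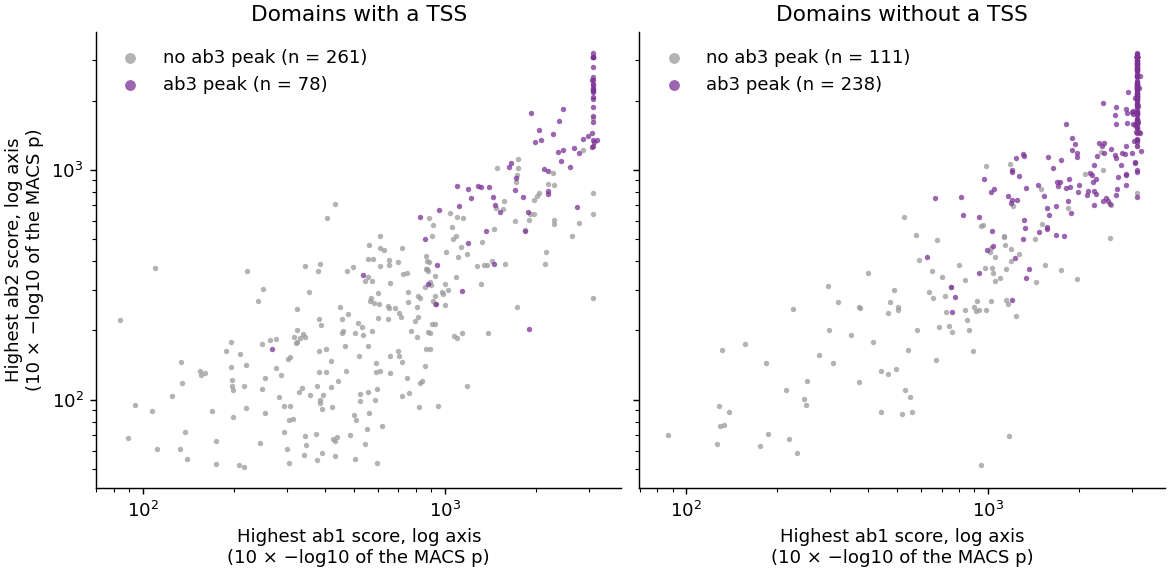
Highest ab1 score (x axis) against highest ab2 score (y axis) of each wide domain, both in units of 10 times −log10 of the MACS p-value on log axes, for the 339 domains with a TSS and the 349 without. Purple points have an ab3 peak (78 and 238 domains) and lie mostly at the upper end of both scores, and the vertical stack of points at the right is the ab1 score of 3100.

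The domains lay close to genes. The midpoint of 280 domains (40.7%, 37.1 to 44.4) was within 1 kb of a TSS, taking the start of the longest transcript of each gene, against 15.1% (14.7 to 15.5) of the other regions. Regions of at least 1500 bp but under 2500 bp had almost the same share, 38.6% (37.0 to 40.2), so the intervals of these neighbouring width classes overlapped. Built without ab1 or without ab2, which leaves 206 or 209 wide domains that must hold an ab3 peak, the share was 20.4% or 17.2%. Regions under 2500 bp with an ab1 score at least as high as the domains' median had a share of only 8.79% (7.90 to 9.75, n = 3597), and 89.5% of them held all 3 antibodies. The median distance from midpoint to TSS was 1842 bp for the domains and 17843 bp for the other regions. More than 50 kb from any TSS lay 66 domains (9.59%) and 22.9% of the other regions.

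Of the domains, 339 (49.3%, 45.6 to 53.0) contained at least 1 TSS and 293 a TSS of a protein-coding gene, and 107 contained 2 or more. Only the start of the longest transcript of each gene is counted here. By these starts 40.7% of midpoints were within 1 kb of a TSS. With all annotated transcripts the share was 52.6%, and with protein-coding genes only 34.2%. Domains counted as without a TSS may thus contain the start of another transcript, and the division was not remade. A wide region has more room to contain a TSS, so the number per length is the fairer value, and it was 210 TSSs per Mb in the domains, 172 in the other regions and 265 in the regions from 1500 bp to just under 2500 bp. Around the 314 coding TSSs inside domains, binding reached a median of 1212 bp upstream and 1901 bp downstream, and the downstream reach was the longer at 70.1% of them (64.8 to 74.9). The other regions gave 69.5%, so this lean towards the gene body was not particular to the wide domains. By midpoint, 359 domains lay in introns, 171 between genes, 70 in UTR exons, 63 in coding exons and 25 in exons of noncoding transcripts. Inside a transcript lay 517 midpoints (75.1%, 71.8 to 78.2) against 60.7% (60.2 to 61.2) of those of the other regions.

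**Figure D3:**
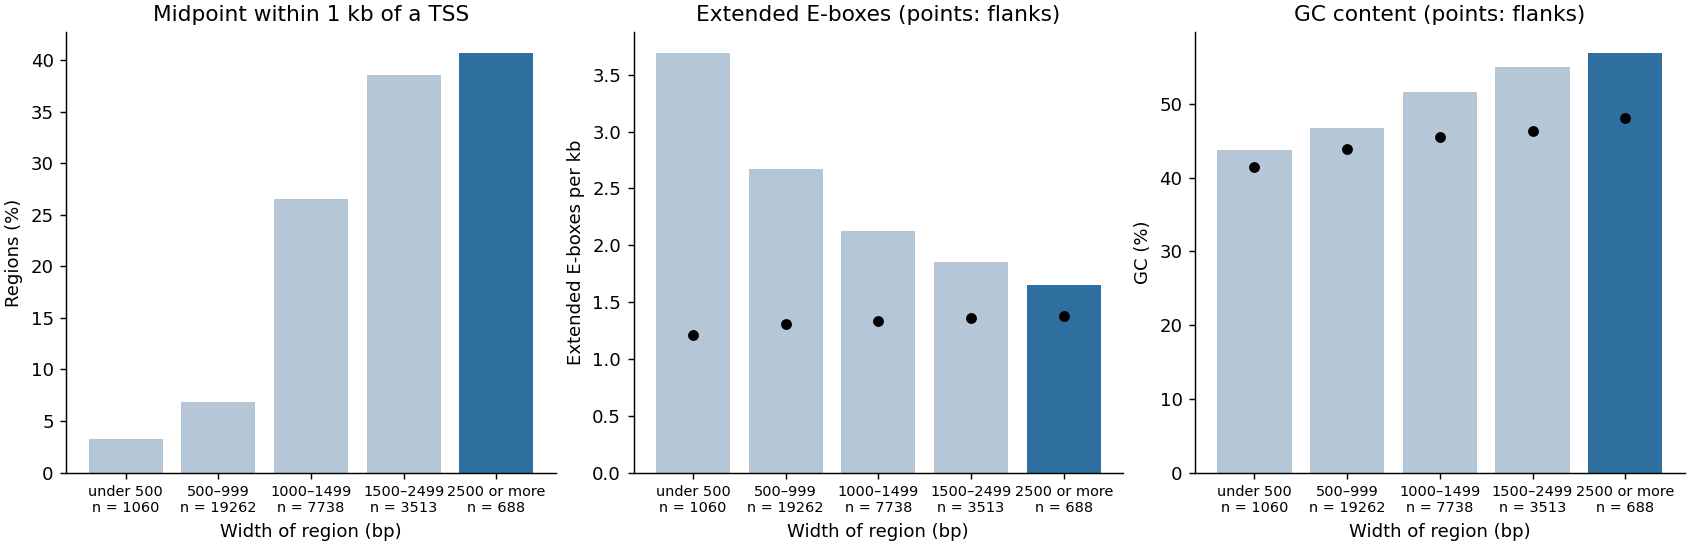
Share of regions with the midpoint within 1 kb of a TSS, extended E-boxes per kb and GC content in 5 width classes, with the number of regions under each bar and the wide domains in dark blue. From the narrowest class to the wide domains the TSS share rises from 3.30% to 40.7%, the E-box density falls from 3.69 to 1.65 per kb and GC content rises from 43.8% to 56.9%, while the E-box density of the flanks (black points) stays between 1.21 and 1.38 per kb.

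Domains with and without a TSS differed in almost every measure. The 339 with a TSS had a GC content of 60.2%, a ratio of observed to expected CpG of 0.653 and a CpG-rich centre in 63.1%, judged around the midpoint by GC content and that ratio together as for CpG islands. The 349 without a TSS had 53.6%, 0.325 and 8.31%. The median ab1 score was 769.5 with a TSS and 2242 without, and the median ab2 score was 287 and 976. An ab3 peak was present in 78 (23.0%, 18.8 to 27.8) of the domains with a TSS and in 238 (68.2%, 63.1 to 72.9) of those without. Wide domains away from a TSS thus had the higher scores and the more frequent ab3 peaks, and those over a TSS had the higher GC and CpG content. The other regions were divided in the same directions, with a GC content of 59.4% with a TSS and 47.7% without, ratios of observed to expected CpG of 0.702 and 0.261, all 3 antibodies in 8.85% and 23.7%, and median ab1 scores of 238 and 278. The part of base composition in the scores was not tested.

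Extended E-boxes followed the same division. The domains held 3632 of them, 1.65 per kb, against 2.35 per kb in the other regions and 1.38 per kb in the domains' flanks, which are stretches of equal width that begin 1000 bp beyond each end. The ratio to the flanks was 1.20 for the domains and 1.77 for the other regions. Without a TSS the domains held 2.12 per kb against 1.46 in their flanks, a ratio of 1.45, and 250 of these 349 (71.6%, 66.7 to 76.1) were denser than their flanks. With a TSS they held 1.18 per kb against 1.30, a ratio of 0.906, and 127 of 339 (37.5%, 32.5 to 42.7) were denser. In the other regions the ratios were 1.94 without and 0.985 with a TSS, and the densities 2.61 and 1.22 per kb. Regions with a TSS made up 1.10 of the 2.20 Mb in wide domains and 5.78 of the 30.8 Mb in the other regions, so the overall densities also differ through this mix. Counting any CANNTG, the ratio of all wide domains to their flanks was 0.944, so the excess over the flanks depended on the form of E-box counted.

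The sites were densest in bases under all 3 antibodies. Bases under a single antibody held 1.16 extended E-boxes per kb, those under 2 held 1.41 and those under all 3 held 2.73. The last come only from the 316 domains with an ab3 peak, where the steps were 1.20, 1.79 and 2.73. In the 372 domains without one they were 1.13 and 1.25, below the 1.31 of the flanks of those domains. In domains without a TSS the steps were 1.35, 1.87 and 2.93, and in those with a TSS 0.958, 1.08 and 2.14. The bases under all 3 antibodies in domains with a TSS thus exceeded the flanks, although these domains as a whole did not. Around peak centres the density rose further. Within 100 bp of the centres of ab3 peaks in the domains it was 4.13 per kb (409 peaks), but around those of ab1 it was 2.09 (875 peaks) and around those of ab2 1.91 (823 peaks). In the other regions the same windows held 5.78, 4.41 and 4.35 per kb. From 250 to 500 bp away from the centres the order turned, with 1.63 per kb around ab1 centres in the domains against 1.33 in the other regions, and 1.56 against 1.33 around ab2 centres. The other regions had a median width of 857 bp, so these outer windows often reach their ends while they stay inside a wide domain. Selection was on width, and its part in both comparisons was not tested.

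**Figure D4:**
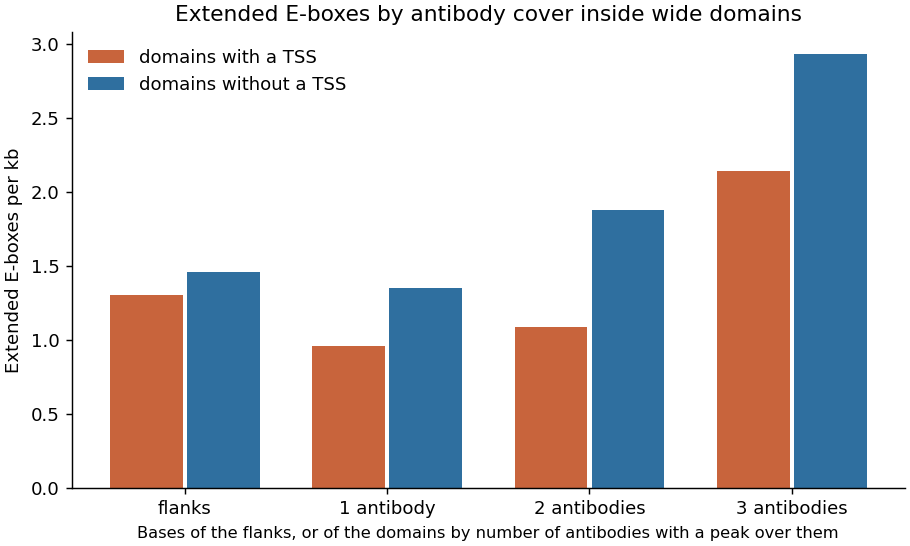
Extended E-boxes per kb in the flanks and under 1, 2 or 3 antibodies, for wide domains with a TSS (orange) and without (blue). The bars for 3 antibodies, 2.14 and 2.93 per kb, are the highest of each kind, and with a TSS the bars for 1 and 2 antibodies lie below that of the flanks (1.30 per kb).

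From the ends inwards the density changed by position. With each side cut into 5 equal parts from end to middle, the outermost held 1.26 sites per kb, the next 1.99, and those further in 1.68, 1.60 and 1.60. In the first 500 bp outside the ends it was 1.07, below the 1.36 to 1.40 found from 500 to 3000 bp outside. A domain held a median of 5 extended E-boxes and at most 21, and 150 domains (21.8%) had 3 or more within 200 bp. No extended E-box was found in 10 domains. Among the widest of these were those at Irs2 (3562 bp), Cpeb2 (3187 bp), Lrrc4b (2969 bp) and Dpysl5 (2890 bp), and none of the 10 had an ab3 peak. Irs2, which encodes an adaptor of insulin signalling, had scores of 545 and 327 with ab1 and ab2 at a GC content of 68.2%. These letters were absent from the window, which says nothing about other sites.

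Densities per kb were highest near Cdh4 (19 sites in 2500 bp, 7.60 per kb), in BC034090 (5.44), near Fam19a5 (4.79), in Rin3 (4.57) and near Gsdmc (4.52). All 5 lacked a TSS and had peaks of all 3 antibodies. The Cdh4 domain had scores of 3100, 1665 and 130.2 with ab1, ab2 and ab3, and the Gsdmc domain 3100, 1811 and 221. Rin3 was bound less strongly, with 991, 446 and 67.3, so a high density of sites went with a broad range of scores.

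Single forms of the E-box behaved differently. CAGCTG occurred 0.883 times per kb in the domains and 1.44 times as often as in the flanks, and it exceeded the flanks both with a TSS (ratio 1.36) and without (1.51). CAGATG, counted together with its complement, occurred 1.00 times per kb, with a ratio of 0.792 with a TSS and 1.38 without. CATATG had ratios of 0.466 and 1.13. CACGTG, a form known from Myc family and clock factors, had ratios of 1.48 and 1.37. In the other regions without a TSS the ratios of CAGCTG and CAGATG were 2.01 and 1.89.

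Motifs of other factor families were counted in the same way on both strands. The GC box CCGCCC was 8.38 times as frequent as in the flanks with a TSS and 2.08 times without, and 83.4% of all domains held it. In the other regions these ratios were 16.1 and 1.85, so a high ratio at a TSS was not particular to the wide domains. In domains without a TSS the octamer ATTTGCAT of POU factors had a ratio of 1.58 (1.22 in other regions without a TSS), the NFI motif TTGGCA 1.38 (1.60) and the RFX motif GTTGCCA 1.35 (1.52). The homeodomain motif TAATTA had a ratio of 1.08 without a TSS and 0.478 with one. The remaining motifs counted were below their flanks in domains without a TSS. They were the Sox motif ACAAAG (0.963), the AP-1 motif TGANTCA (0.825), the CCAAT box (0.933) and the TCF/LEF motif CTTTGA (0.893). A match to these letters is a description of the sequence and not a bound site.

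Each antibody gave the same directions when its own peaks were taken. These peaks lie in the same domains, of whose bases ab1 covered 92.4% and ab2 92.1%, so the antibodies are not independent repeats. Extended E-boxes per kb of peak in the wide domains were 1.70, 1.68 and 2.70 for ab1, ab2 and ab3, and in the other regions 2.49, 2.46 and 3.43. The mean difference was −0.767 ± 0.0281 (SD, n = 3), lower in the wide domains with 3 of 3 antibodies (exact two-sided sign-flip permutation test, p = 0.25). Sites were densest near peak centres, and the part of the selection on width in this difference was not tested. Within 100 bp of the centres the wide domains held 2.09, 1.91 and 4.13 per kb with ab1, ab2 and ab3. The other regions held 4.41, 4.35 and 5.78. Without a TSS the mean difference per kb of peak was −0.584 ± 0.0108 and with a TSS −0.202 ± 0.272, and the latter was smaller than its spread. GC content of the peaks was higher in the wide domains by 6.29 ± 0.913 percentage points, with values of 57.2%, 57.3% and 54.7% against 50.4%, 50.5% and 49.5%. Peak centres within 1 kb of a TSS were more frequent by 16.8 ± 7.42 points, with 35.7%, 36.6% and 14.9% in the wide domains against 15.0%, 15.1% and 6.65%. Centres inside a transcript were more frequent by 12.0 ± 2.33 points. Each of these differences had the same sign with all 3 antibodies and an exact sign-flip p = 0.25, which is the smallest that 3 antibodies can give, so no threshold could be passed. Peaks in wide domains exceeded the flanks by 0.619 ± 0.536 extended E-boxes per kb, mostly through ab3 (exact sign-flip p = 0.25).

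Wide domains often had neighbours. Another region lay within 10 kb of 437 of them (63.5%), against 46.5% of the other regions. The share was 59.7% of the other regions with an ab1 score at or above the domains' median and 54.4% of the regions from 1500 bp to just under 2500 bp. Another wide domain lay within 50 kb of 180. Joined over gaps of up to 50 kb they formed 69 groups, and 19 groups of 3 or more held 80 domains.

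The 2 largest groups lay next to each other over Gse1, which encodes a component linked to histone-modifying complexes. One held 11 wide domains in 187 kb (chr8:120381579-120568856), which took up 26.6% of the span, and 30 regions of any width. The other held 8 in 151 kb (chr8:120159732-120310911), 17.6% of the span. Most had their midpoint in introns of Gse1 or of the overlapping gene model Gm20388, yet 10 were closer to the coding TSS of Gins2 beyond the end of Gse1. In the first group 7 of 11 domains had ab3 peaks, and the domain at chr8:120555887-120561011 had scores of 3100, 3100 and 1199 with 13 extended E-boxes. At the promoter of Gse1 itself the domain of 3916 bp had 323 with ab1 and 179 with ab2, and no ab3 peak. The other 16 domains assigned to Gse1 or Gins2 all had higher ab1 and ab2 scores than this one, the lowest with 352 and 191.

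At chr19:7065869-7150527, 6 domains lay in Macrod1, near or beyond the start of Flrt1, a gene for an adhesion protein of neurons that is encoded within it. Their ab1 scores ran from 138 to 3100. The strongest, 4218 bp wide, had the highest summed score of all wide domains, with 3100, 3100 and 1603 for ab1, ab2 and ab3 and 14 extended E-boxes (3.32 per kb, flanks 1.54). A group of 5 around Nfix (chr8:84706292-84816656) held a domain near Dand5 with scores of 3100, 3100 and 1202 and 3.61 extended E-boxes per kb. Groups of 4 lay near Rhbg (57.3% of 30.2 kb), in Lrp8 (42.1% of 36.0 kb) and at Kif21b, a gene for a neuronal kinesin (33.8% of 37.0 kb). The densest packing among groups of at least 3 was in and beside Nkd1, an inhibitor of Wnt signalling, where 3 domains took up 72.3% of 13.1 kb.

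NEUROD2 bound broadly around its own gene. The group at chr11:98264848-98340745 held 5 wide domains and 13 regions of any width, and 23.9% of the span was in wide domains. The widest member, 5592 bp and centred 10421 bp downstream of the Neurod2 TSS, had scores of 3100, 3100 and 282 with ab1, ab2 and ab3. It held 17 extended E-boxes, 3.04 per kb against 0.715 in its flanks. The domain over the Neurod2 TSS (4133 bp) had 2022 and 771 with ab1 and ab2, a GC content of 62.1% and 1.45 extended E-boxes per kb. The domain on the upstream side, centred at −4855 bp (3106 bp wide), had 3100 and 793. Neither of these had an ab3 peak, whereas the downstream domain had 3.

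The other wide domains of greatest width were near genes of several kinds. The widest of all (7758 bp, chr14:64586514-64594271) had Kif13b as its closest coding gene but contained the start of the microRNA gene Mir124a-1, with its midpoint at −264 bp from that start, whose product miR-124 is the major neuronal microRNA. It had scores of 2467, 1845 and 71.4 and 8 extended E-boxes (1.03 per kb, flanks 0.902). The domain over Mycn, a proto-oncogene of neural progenitors, was 6745 bp wide (chr12:12936811-12943555) with 3067, 1443 and 72.0. Tle3, a Groucho family corepressor (6420 bp, 2302 and 603), and Rcor2, a corepressor of the CoREST family (6365 bp, 3100 and 278), had no ab3 peak. Mn1 (6262 bp) had 1896, 203 and 76.0. Ndufa4l2 (5753 bp) had 2873, 1771 and 80.2. In these widest domains ab3 was absent or low, and only the one at Neurod2 and one in Gse1 exceeded an ab3 score of 200 among the 10 widest.

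Domains with the highest summed scores ranged in width from 2605 to 5232 bp. After that near Flrt1, they were an intron of Trak1 with Cck as closest coding gene (2965 bp, 3100, 3100 and 1239.9), Man1c1 with Selenon as closest (2605 bp, ab3 1226), Dand5 (3326 bp, 1202), the Gse1 locus (5125 bp, 1199), Cdh26 (3285 bp, 1190), Afap1 (2906 bp, 1130.5), Atp9a (3113 bp, 1080.3), Lrpap1 (5232 bp, 1048) and Foxo6 (4179 bp, 945). All 10 lacked a TSS and stood at 3100 with ab1 and ab2, so they are ordered only by ab3.

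For genes, each domain was given to the closest coding TSS. This named 573 of 21911 protein-coding genes (2.62%), while 9597 (43.8%) had a region of any width. Without ab1 the domains named 179 genes and without ab2 185, and the shares below were not recomputed for these smaller sets. At least 2 domains fell to 80 genes and 3 or more to 19, led by Gins2 with 10, Gse1 with 7, Flrt1 with 5 and Rhbg, Lrp8 and Kif21b with 4, and then Neurod2, Prex1, Zmiz1 and Foxo6 with 3. Prex1, an activator of Rac that guides neurite growth, had 3 intronic domains with ab3 scores of 464, 1038 and 579. The nearest gene need not be the one that a domain acts on.

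Projection neuron identity factors had the highest share of the gene lists, with an interval that overlapped those of all but the subpallial list. Of 33 such genes 20 had a wide domain (60.6%, 43.7 to 75.3), with 28 domains between them, and all 33 had a region of some width, with a median of 14 regions per gene. The corresponding background shares are 2.62% and 43.8%. Among the 9597 coding genes with a region of any width, 5.97% had a wide domain. Of the 28 domains 16 contained a TSS and 9 had ab3 peaks. Genes of this list have many regions around them, and how far that number alone gives wide domains was not tested.

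Emx1, a dorsal telencephalic homeodomain factor, had 2 domains that differed in position and score. The one over its TSS (2744 bp) had 593 with ab1, 112 with ab2 and no ab3 peak, with 2 extended E-boxes. The one centred 31666 bp downstream (3185 bp), in an intron of Sfxn5, had 2837, 1176 and 191 with ab1, ab2 and ab3 and 9 extended E-boxes. Zbtb18, a repressor needed for neuron migration and differentiation, had a domain that contained its TSS (3960 bp) with 3100, 2178 and 439.8 and 11 extended E-boxes. Sox5, an identity factor of deep-layer neurons, had an intronic domain 572662 bp from its TSS with 2490.2, 735 and 132.

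At the TSSs of other identity factors scores ranged widely, and ab3 was mostly without a peak. Cux1 (274 and 183 with ab1 and ab2) and Cux2 (432 and 66.1), factors of upper layers, Tbr1 (169 and 89.2), a factor of layer VI and subplate neurons, and Nfia (375 and 70.8) each had 1 such domain at their TSS. Fezf2, which specifies corticospinal neurons, had a domain of 2892 bp centred 2844 bp downstream with 133 and 77.8. Pou3f2 (2299 and 583), Sox11 (3100 and 1675), Foxp2 (3100, 2234 and 191) and Nfib (982 and 287) were scored above the ab1 median of 769.5 for domains with a TSS, as were the TSS domains of Foxp1 and Pou3f1. Sox4 had 871 and 369 at its TSS and 3100, 2276 and 152 in a domain centred at −5263 bp, upstream of the gene. Other members with a domain were Pou3f3, Bcl11a, Nfix and Emx2.

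Of 22 bHLH factors and partners 9 had a wide domain (40.9%, 23.3 to 61.3), and all 22 had a region. Beside Neurod2 they were Neurod6, Neurog2, Nhlh1, Bhlhe22, Tcf4, Id2, Id4 and Hes6. Neurod6, the closest relative of Neurod2 in these neurons, had 2 intergenic domains, 34284 bp (2322, 1305 and 86.2) and 100961 bp (1240.0, 1129 and 116) downstream. Hes6, which promotes neuronal differentiation, had 3100, 3100 and 284 in 3454 bp at its TSS, the highest summed score at a TSS in this list. Bhlhe22, a repressor in projection neurons, had 3199, 1352 and 79.9 over 4230 bp. Neurog2, the proneural factor of cortical progenitors, had 465 and 172 and no ab3 peak. The inhibitors Id2 (887 and 163) and Id4 (753 and 294) had no ab3 peak either, and Tcf4, an E protein, had 3092, 1464 and 184 in an intron.

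In the Reelin pathway and migration list 5 of 15 genes had a wide domain (33.3%, 15.2 to 58.3) and 13 had a region. Lrp8, a Reelin receptor, had 4. The domain over its own TSS (3112 bp) had 459 and 198 with ab1 and ab2, and the others inside the gene, centred 19672, 28025 and 33300 bp downstream, had 3100, 1447 and 724 with ab1 and 1265, 764 and 241 with ab2. The first and second of these each contained the start of an antisense transcript, Lrp8os2 and Lrp8os1, and had ab3 peaks of 135 and 50.4. Vldlr, the other Reelin receptor, had 551 and 74.5 at its TSS. Dab1, the adaptor that passes the Reelin signal on, had a domain centred at −42829 bp, upstream of the gene, with 3100, 2599 and 330.5. Rnd3, a GTPase of migrating neurons, had 2728, 691 and 91.3, and Cdh2, N-cadherin, had 1317, 839 and 75.3, both at their starts.

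Axon guidance genes with a wide domain were 9 of 30 (30.0%, 16.7 to 47.9), and 29 had a region. They were the ephrin receptors Epha4, Epha7, Ephb1 and Ephb2, the ephrin Efnb2, the semaphorin receptors Plxna2, Plxna4 and Plxnd1, and the netrin receptor Dcc. Of their 11 domains 8 contained a TSS, and the 3 that did not, in introns of Ephb1 (2860.0, 951 and 182), Ephb2 (3100, 1759 and 128) and Efnb2 (1033, 466 and 95.3), were those with ab3 peaks. Epha4 had the widest (4150 bp, 865 and 420.1). Of 15 genes listed here as progenitor genes 4 had a domain (26.7%, 10.9 to 52.0), namely Sox2, Insm1, Dll1 and Tle4, and 14 had a region. Insm1, which drives the formation of basal progenitors, had the strongest of these at 2285 and 973. Not every gene of this list, Tle4 among them, is restricted to progenitors.

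Subpallial and interneuron genes, which mark cells that arise outside the cortex, had a wide domain at 0 of 15 genes, which allows a share of up to 20.4% by the Wilson interval, and 8 of 15 (53.3%) had a region of some width. With 15 genes this share cannot be told from the 2.62% of all coding genes. These genes had a median of 1 region each against 14 for the identity factors, so the lists differed in how many regions could be wide.

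**Figure D5:**
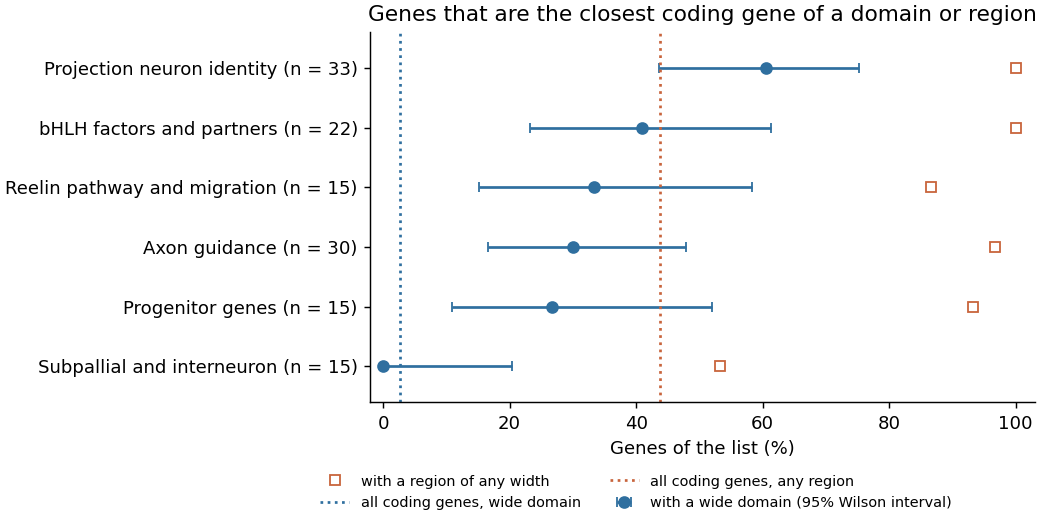
Share of genes in 6 lists that are the closest coding gene of a wide domain (filled circles, 95% Wilson intervals) or of a region of any width (open squares), with dotted lines at the shares of all coding genes, 2.62% and 43.8%. The identity factors have the highest share with a wide domain, 60.6%, and the subpallial genes have none.

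Across chromosomes, the share of regions that were wide was highest on chromosome 8 (63 of 1812, 3.48%, 2.73 to 4.42), chromosome 19 (25 of 752, 3.32%) and chromosome 11 (67 of 2062, 3.25%). Among chromosomes with more than 1 region it was lowest on chromosome X, with 2 of 508 (0.394%, 0.108 to 1.42), in an intron of Bcor (129 and 76.9 with ab1 and ab2) and at the TSS of Pnck (390 and 58.7). The Gse1 groups alone gave 19 of the 63 on chromosome 8.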

How the data were processed

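Per the authors' methods, single-end reads were placed on mm10 by Bowtie, duplicates and reads with several matches were dropped, and MACS then found the peaks of every antibody separately, with a GFP antibody library as background. The deposited lists give each peak's position and score, which is 10 times the −log10 of its p-value and is not scaled for depth. Deposited peaks were merged as stated above, and sequence was read from the RefSeq FASTA of GRCm38 (strain C57BL/6J, whereas the mice were BALB/c) with GENCODE gene models. Each gene's TSS was the start of its longest transcript. Python 3.11.15 with numpy 2.4.6, scipy 1.17.1 and matplotlib 3.10.9 was used, and the scripts were tested on simulated data.

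The domains, gene lists and tests were chosen with earlier results of these data known. Genes named are the closest coding genes of the 10 widest and the 10 highest-scoring domains, the 3 on each side of the width limit, the 5 with most extended E-boxes per kb and up to 5 with none, the 10 genes with most domains, and list members with a domain. Others were named after their values were seen, namely genes at groups of domains (Nkd1 and Gm20388), host genes, and Bcor and Pnck. Conditions could not be compared, since every library was of the same tissue and age. Differences were compared over the 3 antibodies with the exact two-sided sign-flip permutation test. Some named items are not reported here, although the counts over domains and lists include them.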

Additional observations from a re-analysis of the deposited data

Results flagged for a closer look

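Regions seen by a single antibody were left out of the domains, and 75 of the 21572 such merged regions (0.348%) nevertheless reached 2500 bp. They are given here because they lie outside the regions compared in the report. Of the 75, 68 were of ab1, 6 of ab2 and 1 of ab3. They held 1.01 extended E-boxes per kb at a GC content of 64.1%, their median score was 216, and 61 (81.3%) contained a TSS. In these values they lay beyond the wide domains with a TSS, which had 1.18 per kb and 60.2% GC.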

How the results depend on the processing

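Under the other settings, 63 values moved by less than the SD over antibodies, or for counts by less than 1.5 times, 23 moved further and 1 changed direction. That one is the ratio of E-box density in wide domains to their flanks, which was 1.20 as reported and 0.944 with any CANNTG, a setting chosen for this ratio after seeing the data together with 2 others (CAGCTG and CAGATG only, 1.23, and midpoints over 1 kb from a TSS, 1.39). A limit of 2000 bp gave 1643 domains, 41.3% with all 3 antibodies and 1252 genes, a limit of 3000 bp gave 333 domains and 288 genes, and requiring 2500 bp under 2 or more antibodies gave 399 domains and 351 genes. Keeping only peaks with a score of at least 100 gave 35.5% with all 3 antibodies. Protein-coding genes alone put 68.5% of midpoints inside a transcript. Any CANNTG gave 5.56 per kb and a ratio of wide domains to other regions of 0.795, and midpoints over 1 kb from a TSS gave a ratio of 0.765, against 0.703 as reported. The cause was not tested.

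Leaving out each antibody in turn gave 206 to 682 domains, 179 to 570 genes, 17.2% to 40.9% of midpoints within 1 kb of a TSS, 67.9% to 74.8% inside a transcript, 53.7% to 56.9% GC and a ratio of 0.700 to 0.778. The low counts and TSS shares came without ab1 and without ab2, where only regions with an ab3 peak remain by construction. The share with all 3 antibodies has no value there. No paired analysis was possible because there was a single condition, so no replicate number is shared between groups of samples. The sign-flip test instead compares wide domains with other regions within each antibody. The peak lists hold no read counts, and the read totals that the study gives elsewhere were not used here. Intervals cover counting error only.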
